A study of Homo sapiens with 30 samples.

Results

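The 5 long non-coding RNAs described here in HT29 cells are LINC00261, IGFL2-AS1, UCA1, GUSBP11 and BCYRN1, 5 of the 60675 genes in the deposited expected-count table. All 5 were among the 18783 genes with enough counts to be tested. They were selected on measured values of these same libraries, as RNAs that differed with extract treatment, and the sources used here do not state which contrasts chose them. Their levels and differences are therefore given as descriptions, with no p-values, and the number of them called in each comparison is listed once without being read as support. Symbols were assigned from Ensembl gene identifiers.

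HT29 is an established line from a human colorectal adenocarcinoma. The 30 libraries came from cells treated for 24 h with the vehicle (labelled 0.1% DMSO) or with a 70% ethanol extract of Banhasasim-tang, Bojungikgi-tang, Sayeok-tang or Yijung-tang, which are traditional multi-herb formulas, at 20, 100 or 500 µg/mL. The vehicle had 3 libraries, Bojungikgi and Sayeok had 3 at each dose, Banhasasim had 2 and Yijung had 1, so Yijung values have no replicate check. The labels do not say whether replicates were separate cultures, so the spread between them may be technical. All 30 libraries, the vehicle included, are titled BatchE. Within it, sample codes placed the vehicle in a series of its own, Banhasasim with Yijung, and Bojungikgi with Sayeok. Code series and treatment therefore cannot be told apart in any comparison with the vehicle.

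Total counts ran from 36273842 to 71625568 per library, with a median of 50054028. Levels are in CPM, the count of a gene scaled to the total of its library, and a limit of 3 counts lay between 0.0419 and 0.0827 CPM. All 8 of 8 colon epithelial markers, EPCAM, KRT8 and KRT20 among them, were above 1 CPM in every library. Of 12 markers of fibroblasts, endothelium and leukocytes, 8 never exceeded 12 counts, the others being COL1A1, LUM, PECAM1 and CD14, and the summed level of all 12 was 7.34 to 8.06 CPM in the vehicle and 6.60 to 8.12 CPM with extracts. Mitochondrial ribosomal RNA took 12.9% and 9.41% of counts in the 2 libraries of Banhasasim at 500 µg/mL and 0.914% to 1.91% in the others. Vehicle replicate 1 had the highest share of ribosomal protein mRNA, 6.91%, against 3.78% to 5.89% in the other libraries.

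Long non-coding RNAs are transcripts without a known protein product, and many act in the nucleus near the gene from which they are made or bind proteins and other RNAs. LINC00261 is a transcript of endoderm-derived tissue made next to FOXA2, the gene of a forkhead factor of gut, liver and lung. UCA1 was first described in bladder carcinoma and is abundant in many epithelial tumours. IGFL2-AS1 takes its name from IGFL2, a gene of the insulin growth factor-like family. GUSBP11 is transcribed from a partial copy of GUSB, the gene of lysosomal beta-glucuronidase. BCYRN1, or BC200, is a small cytoplasmic RNA made by RNA polymerase III that arose from an Alu repeat and is known as a repressor of translation in neurons and tumour cells.

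GENCODE release 29 (GRCh38) places LINC00261 (ENSG00000259974) on the minus strand at chr20:22547671-22578642, with 3 transcripts. UCA1 (ENSG00000214049) lies on the plus strand at chr19:15828206-15836326, with 36 transcripts. IGFL2-AS1 (ENSG00000268621) lies on the minus strand at chr19:46189166-46203083, with 6 transcripts. GUSBP11 (ENSG00000228315) covers chr22:23638487-23717356 on the minus strand, also with 6 transcripts. BCYRN1 (ENSG00000236824) is a gene of a single exon on chromosome 2.

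How far reads can be given to each RNA differs among them. Of all 31-base words in their transcripts, IGFL2-AS1 shared 4.97% with other annotated genes, UCA1 11.95%, BCYRN1 32.94%, LINC00261 86.31% and GUSBP11 95.39%. For LINC00261 nearly all sharing was with 1 overlapping gene model on the same strand, AL121722.1 (85.59% of the words; chr20:22560553-22584261), which also reaches into FOXA2 and is not analysed here. The expected counts of LINC00261 and IGFL2-AS1 were whole numbers in 30 of 30 libraries and those of UCA1 in 22, whereas GUSBP11 and BCYRN1 had whole values in 0 of 30. Values of the last pair are thus divided estimates. The strand setting of the authors' counting is unknown, so reads of genes on opposite strands may not have been told apart. This concerns UCA1, which shares 489 exon bases with LINC01764 on the other strand, and IGFL2-AS1, which ENSG00000267922 overlaps there without sharing an exon.

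The RefSeq table of promoters (GRCh38.p14), with 250 bases before and 50 after the annotated start, was matched for 1 of the 5 RNAs, LINC00261, and not for IGFL2-AS1, UCA1, GUSBP11 or BCYRN1. It is shown because LINC00261 differed with dose in all 3 replicated extracts. The window is chr20:22578593-22578892 on the minus strand, printed 5′ to 3′, and capitals mark the letters of a FOXA motif, TGTTTAC, here on the opposite strand.
LINC00261 promoter: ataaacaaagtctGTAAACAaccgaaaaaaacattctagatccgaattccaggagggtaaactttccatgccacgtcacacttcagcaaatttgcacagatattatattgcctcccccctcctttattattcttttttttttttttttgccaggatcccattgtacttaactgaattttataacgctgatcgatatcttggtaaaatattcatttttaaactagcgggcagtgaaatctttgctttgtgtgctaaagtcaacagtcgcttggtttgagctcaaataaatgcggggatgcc
The FOXA match began at position -237 from the start, and 3.42% of 35116 promoters of the same length held at least 1 such match on either strand. The letters of an NRF2 element, TGACNNNGC, matched once at -181 (13.35% of promoters), and the HIF core, ACGTG, matched once at -179 within the same letters (21.41% of promoters). No match was found for the AhR core GCGTG, which 36.54% of promoters held. The ATF4 element TGATGNAA, present in 3.62%, the AP-1 motif TGACTCA, present in 4.95%, and the TEAD motif CATTCC, present in 14.03%, had no match either. Both strands were searched throughout, and a match describes letters only.

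Levels of the RNAs were also scaled by length. BCYRN1 has only 200 bases, was read with paired 100 bp reads, and its counts are divided estimates. Its value per kilobase is therefore not comparable with those of the longer RNAs. The median level over the 30 libraries, per kilobase of merged exons, was 54.5 CPM for BCYRN1, 5.32 for UCA1, 3.74 for IGFL2-AS1, 3.18 for LINC00261 and 0.695 for GUSBP11. The order was the same when the longest transcript was used as the length, with 54.5, 8.22, 6.32, 3.59 and 1.19 CPM per kilobase. Counts per library ran from 395 to 1573 for LINC00261, 811 to 1642 for UCA1, 181 to 543 for IGFL2-AS1, 124 to 291 for GUSBP11 and 310 to 997 for BCYRN1. Between replicates, the pooled SD of log2 CPM was 0.081 for LINC00261, 0.093 for UCA1 and 0.11 for IGFL2-AS1, against 0.176 for GUSBP11 and 0.245 for BCYRN1 (17 degrees of freedom).

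**Figure D1:**
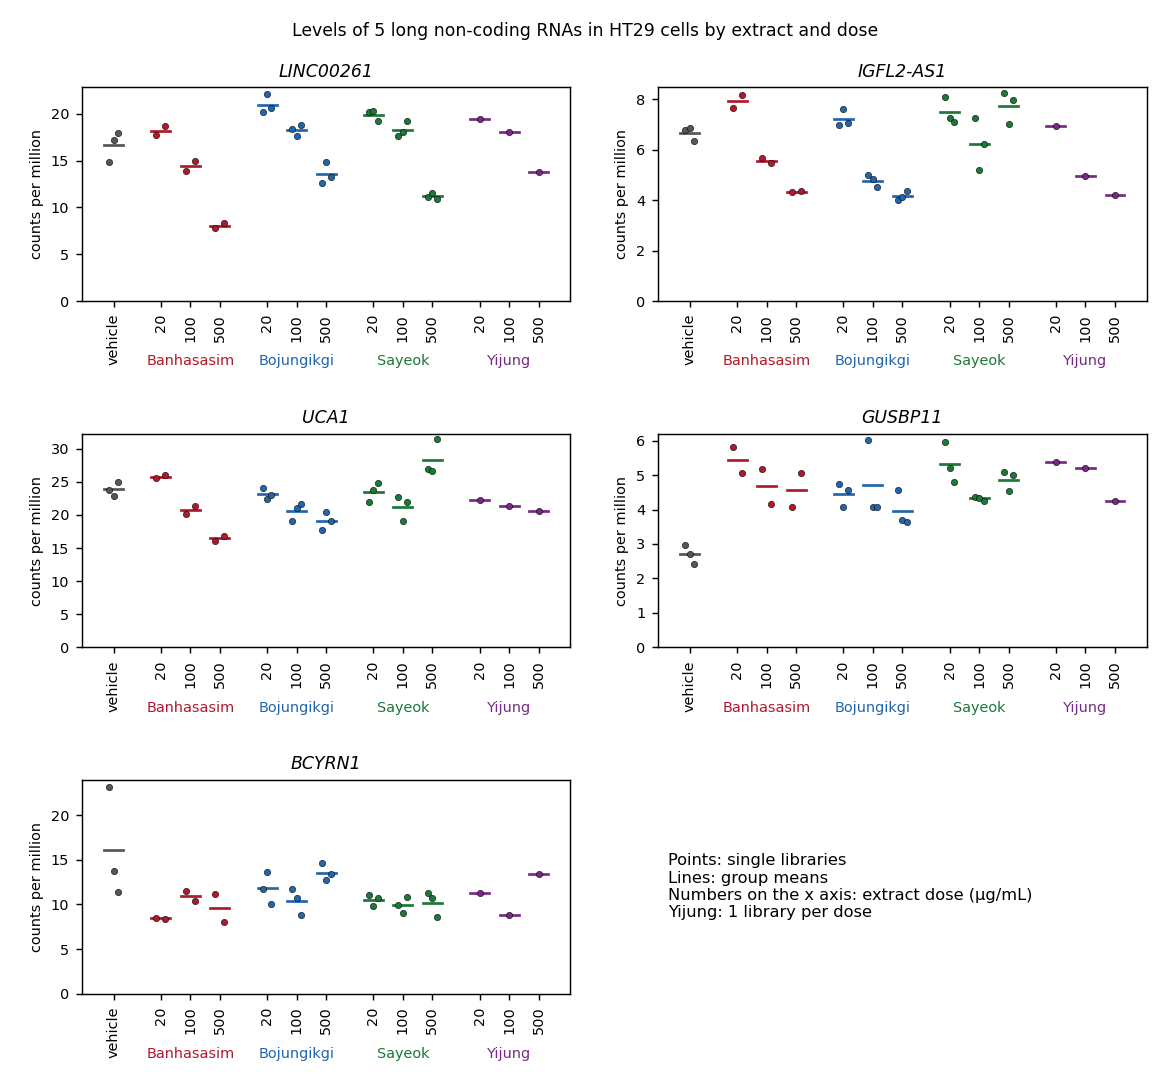
Level of each RNA (y axis, CPM) in each of the 30 libraries, by vehicle, extract and dose in µg/mL (x axis). Points are libraries and lines are group means. LINC00261 has its lowest values at 500 µg/mL in all 4 extracts, UCA1 at 500 µg/mL is lowest with Banhasasim and highest with Sayeok, and GUSBP11 is lowest in the 3 vehicle libraries.

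LINC00261 was lower at the highest dose of every extract. In the vehicle its level was 14.9, 17.2 and 17.9 CPM. With Banhasasim it was 17.7 and 18.7 CPM at 20 µg/mL, 13.9 and 15.0 at 100, and 7.80 and 8.31 at 500. The values at each dose lay below all values at the dose before. With Bojungikgi it was 20.2, 22.1 and 20.6 CPM at 20 µg/mL, 18.4, 17.6 and 18.8 at 100, and 12.6, 14.9 and 13.2 at 500. With Sayeok it was 20.2, 20.3 and 19.2 CPM at 20 µg/mL, 17.6, 18.1 and 19.2 at 100, and 11.1, 11.5 and 10.9 at 500. In both extracts the groups at 500 and 20 µg/mL did not overlap, and the step from 100 to 500 µg/mL was the larger one. The single Yijung libraries had 19.4, 18.1 and 13.8 CPM at 20, 100 and 500 µg/mL.

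The log2 difference of LINC00261 between 500 and 20 µg/mL was -1.04 ± 0.08 (SE) with Banhasasim, -0.62 ± 0.06 with Bojungikgi and -0.81 ± 0.06 with Sayeok. Banhasasim minus Bojungikgi, the gap between these differences was -0.42 ± 0.10, and Banhasasim minus Sayeok it was -0.23 ± 0.10. Against the vehicle, 500 µg/mL differed by -0.97 ± 0.08, -0.34 ± 0.06 and -0.61 ± 0.06 in the same order of extracts. These 3 comparisons share the vehicle libraries. In RNA from whole cultures, fewer cells that make a transcript and less of it per cell cannot be told apart. At 500 µg/mL with Bojungikgi, 1 library (14.9 CPM) overlapped with the lowest vehicle value. Ordered by mean, the groups ran from Banhasasim 500 (8.05 CPM) over Sayeok 500 (11.1) and Bojungikgi 500 (13.6) to Bojungikgi 20 (20.9), and 7 of the 12 pairs of neighbours in that order overlapped.

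IGFL2-AS1 was lower at higher doses of Banhasasim and Bojungikgi, and not with Sayeok. Vehicle levels were 6.78, 6.84 and 6.33 CPM. Banhasasim gave 7.66 and 8.17 CPM at 20 µg/mL, 5.68 and 5.45 at 100, and 4.31 and 4.36 at 500. Bojungikgi gave 6.97, 7.62 and 7.07 CPM at 20 µg/mL, 4.98, 4.82 and 4.52 at 100, and 4.00, 4.14 and 4.34 at 500. For both extracts each dose lay wholly below the one before it. Sayeok gave 8.07, 7.26 and 7.10 CPM at 20 µg/mL, 7.25, 5.19 and 6.23 at 100, and 8.25, 7.01 and 7.97 at 500, so that the groups at 500 and 20 µg/mL overlapped and the middle dose had the lowest mean. Yijung gave 6.94, 4.97 and 4.20 CPM from the lowest to the highest dose.

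Between 500 and 20 µg/mL IGFL2-AS1 differed by -0.74 ± 0.12 on the log2 scale with Banhasasim, -0.79 ± 0.10 with Bojungikgi and 0.07 ± 0.09 with Sayeok. The gap between the Sayeok and Bojungikgi differences was 0.86 ± 0.14, and Banhasasim minus Sayeok it was -0.81 ± 0.15. Between Banhasasim and Bojungikgi the gap was 0.05 ± 0.15, with an approximate 95% interval from -0.25 to 0.35. Against the vehicle the differences at 500 µg/mL were -0.54 ± 0.11, -0.71 ± 0.10 and 0.19 ± 0.09. In the order of group means, 7 of 12 pairs of neighbours overlapped.

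UCA1 was lower at the highest dose of Banhasasim and Bojungikgi and higher at that of Sayeok. Vehicle levels were 23.7, 22.9 and 25.0 CPM. Banhasasim gave 25.6 and 26.0 CPM at 20 µg/mL, 20.1 and 21.4 at 100, and 16.1 and 16.8 at 500. Bojungikgi gave 24.1, 22.4 and 23.0 CPM at 20 µg/mL, 19.1, 21.1 and 21.6 at 100, and 17.7, 20.4 and 19.1 at 500. In both extracts all libraries at 500 µg/mL were below all at 20. Sayeok gave 22.0, 23.7 and 24.8 CPM at 20 µg/mL, 22.7, 19.1 and 21.9 at 100, and 26.9, 26.6 and 31.5 at 500, and here all libraries at 500 µg/mL were above those at both lower doses. The single Yijung libraries gave 22.2, 21.4 and 20.6 CPM from the lowest to the highest dose.

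The log2 difference of UCA1 between 500 and 20 µg/mL was -0.51 ± 0.10 with Banhasasim, -0.27 ± 0.08 with Bojungikgi and 0.30 ± 0.08 with Sayeok. Banhasasim minus Sayeok, the gap was -0.81 ± 0.12, and Sayeok minus Bojungikgi it was 0.57 ± 0.11. Against the vehicle the differences at 500 µg/mL were -0.46 ± 0.09, -0.36 ± 0.08 and 0.22 ± 0.08. Group means ran from 16.4 CPM for Banhasasim 500 to 28.4 CPM for Sayeok 500, and 6 of 12 pairs of neighbours in that order overlapped. Over the 13 group means, log2 levels of UCA1 and IGFL2-AS1 had a Pearson r of 0.844, the highest among pairs of these RNAs, which were measured in the same libraries. LINC00261 had an r of 0.416 with UCA1 and 0.460 with IGFL2-AS1.

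The CPM of Banhasasim at 500 µg/mL are lowered by the counts that mitochondrial ribosomal RNA took there. After TMM scaling, the means in that group were 8.70 CPM for LINC00261, 4.69 for IGFL2-AS1 and 17.8 for UCA1, against 8.05, 4.33 and 16.4 before it. The log2 differences above carry this scaling.

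**Figure D2:**
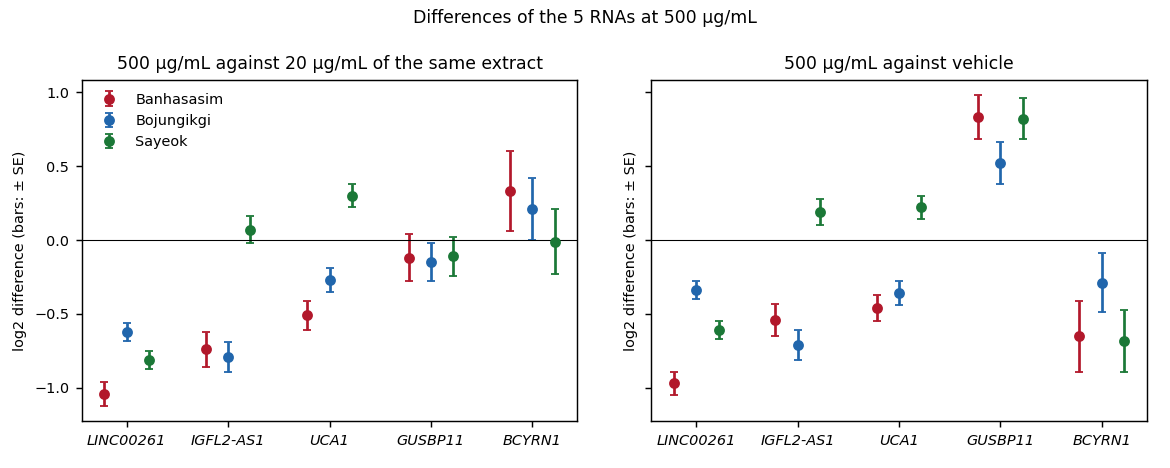
Log2 difference (y axis, ± SE) of each RNA at 500 µg/mL against 20 µg/mL of the same extract (left) and against the vehicle (right), by extract. LINC00261 is below 0 in every comparison, and UCA1 with Sayeok is above 0 in both.

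GUSBP11 set the vehicle apart and not the dose. Its vehicle levels were 2.98, 2.72 and 2.41 CPM. All 27 of 27 extract libraries were higher, with a lowest value of 3.63, a median of 4.57 and a highest of 6.02 CPM. For comparison, 5.05% of all tested genes had vehicle libraries that did not overlap with the extract libraries in CPM. Against the vehicle, 500 µg/mL differed by 0.83 ± 0.15 on the log2 scale with Banhasasim, 0.52 ± 0.14 with Bojungikgi and 0.82 ± 0.14 with Sayeok. Between 500 and 20 µg/mL the differences were -0.12 ± 0.16, -0.15 ± 0.13 and -0.11 ± 0.13. Banhasasim at 500 µg/mL (4.06 and 5.05 CPM) lay just below 20 µg/mL (5.81 and 5.07), whereas the groups overlapped for Bojungikgi and Sayeok. After TMM scaling the Banhasasim groups overlapped too, with 4.52 and 5.30 CPM at 500 µg/mL and 5.73 and 4.99 at 20. Among the 13 groups ordered by mean, 9 of 12 neighbouring pairs overlapped.

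Other gene models cover the same exons as GUSBP11. On the same strand, ENSG00000272578 held 64.7% and AP000347.2 held 41.74% of its 31-base words, and RGL4, on the opposite strand, shared 2252 exon bases. ENSG00000272578 had 4.40 to 4.87 CPM in the vehicle and 3.27 to 6.52 with extracts. AP000347.2 had 1.12 to 2.26 and 1.25 to 2.76 CPM. Unlike GUSBP11, both overlapped between vehicle and extracts. The sum of the 3 models was 8.51, 8.76 and 9.68 CPM over the vehicle libraries in rising order and 9.14 to 13.2 CPM (median 11.1) with extracts. These ranges overlapped. GUSBP11 took 27.6% to 35.1% of the sum in the vehicle and 30.2% to 52.5% (median 43.9%) with extracts. In edgeR's quasi-likelihood test of 500 µg/mL against the vehicle, ENSG00000272578 differed by -0.37 ± 0.13 with Banhasasim (adjusted p = 0.0597), 0.15 ± 0.11 with Bojungikgi (adjusted p = 0.326) and -0.24 ± 0.12 with Sayeok (adjusted p = 0.171). None of these passed the threshold. Without a filter on low counts, the Banhasasim difference was -0.38 and was called (adjusted p = 0.0434), opposite in sign to that of GUSBP11.

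**Figure D3:**
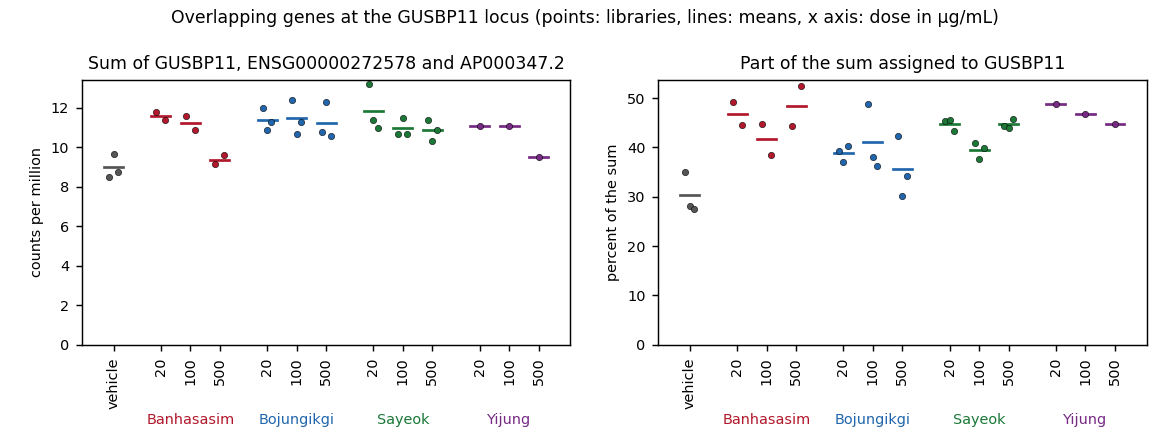
Summed level of GUSBP11, ENSG00000272578 and AP000347.2 in CPM (left) and the percentage of that sum assigned to GUSBP11 (right), per library (points) with group means (lines), by extract and dose in µg/mL. The vehicle sums, 8.51 to 9.68 CPM, overlap with the extract range of 9.14 to 13.2 CPM only through Banhasasim and Yijung at 500 µg/mL. The vehicle percentages overlap with the lowest extract values.

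GUSB and its other copies gave a background for GUSBP11. Of 16 listed genes, 11 were tested, and edgeR called 0 of them between 500 and 20 µg/mL in each of the 3 extracts. At an unadjusted p under 0.05 there were 2 with Banhasasim, 0 with Bojungikgi and 1 with Sayeok, and DESeq2 also called 0 in each. Their median log2 difference was -0.20, -0.04 and -0.12, against 0.005, 0.001 and 0.004 over all genes. Against the vehicle, 0 of the 11 were called with Banhasasim or Sayeok (2 and 1 at an unadjusted p under 0.05). With Bojungikgi 1 was, GUSBP18, named after its values were seen, which was higher by 0.25 ± 0.09 (edgeR, adjusted p = 0.0471). That call was lost without vehicle replicate 1 (adjusted p = 0.238) or 2 (0.0609), without Bojungikgi replicate 1 (0.0663) or 2 (0.251) at 500 µg/mL, and with only the compared groups in the fit (0.138). The summed level of the 16 genes was 85.3 to 90.8 CPM in the vehicle, inside the range of 77.4 to 94.7 CPM with extracts. GUSB itself had a group mean of up to 64.2 CPM, so this sum says little about its copies.

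BCYRN1 had its highest level in 1 vehicle library and overlapped between 500 and 20 µg/mL in the 3 replicated extracts. Vehicle replicate 1 had 23.2 CPM, while replicates 2 and 3 had 13.8 and 11.4, and the extract libraries had 8.06 to 14.6 (median 10.7). Of the 27 extract libraries, 19 lay below all 3 vehicle libraries and 0 above them. Banhasasim gave 8.50 and 8.43 CPM at 20 µg/mL, 11.5 and 10.4 at 100, and 11.2 and 8.06 at 500. Bojungikgi gave 11.7, 13.6 and 10.1 CPM at 20 µg/mL, 11.7, 10.7 and 8.77 at 100, and 14.6, 12.7 and 13.4 at 500. Sayeok gave 11.1, 9.79 and 10.7 CPM at 20 µg/mL, 9.99, 9.08 and 10.8 at 100, and 11.3, 10.7 and 8.55 at 500. The groups at 500 and 20 µg/mL overlapped in all 3 extracts. Without overlap, Banhasasim at 100 µg/mL lay above 20, and Bojungikgi at 500 µg/mL lay above 100. Yijung gave 11.3, 8.80 and 13.4 CPM.

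Between 500 and 20 µg/mL BCYRN1 differed by 0.33 ± 0.27 on the log2 scale with Banhasasim, 0.21 ± 0.21 with Bojungikgi and -0.01 ± 0.22 with Sayeok. Against the vehicle the differences were -0.65 ± 0.24, -0.29 ± 0.20 and -0.68 ± 0.21. Without vehicle replicate 1 they became -0.29, 0.08 and -0.31. Without Banhasasim replicate 2 at 500 µg/mL the difference of that extract from the vehicle was -0.95 and that from 20 µg/mL was 0.02. Without replicate 3 they were -0.41 and 0.57. Ordered by mean, 11 of 12 neighbouring groups overlapped. Vehicle replicate 1 also had the highest ribosomal protein share, 6.91%, and its part in the BCYRN1 values was not tested.

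Other small RNAs of RNA polymerase III were measured unevenly. Of 18 listed, 14 had a row, 6 of these had 0 counts in all libraries and 5 were tested. Their summed level was 10.1 to 18.3 CPM in the vehicle and 13.2 to 128 CPM with extracts. With edgeR, 0 of the 5 were called between 500 and 20 µg/mL in any of the 3 extracts. At an unadjusted p under 0.05 there were 0, 2 and 0 with Banhasasim, Bojungikgi and Sayeok, and DESeq2 called 0. Against the vehicle, 3 genes of the list were called, and they are named after their values were seen. RPPH1, the RNA of ribonuclease P, was lower with Banhasasim by -1.05 ± 0.27 on the log2 scale (edgeR, adjusted p = 0.00967), a call lost without replicate 2 at 500 µg/mL (0.117). RN7SL2, a signal recognition particle RNA, was higher by 2.47 ± 0.78 with Bojungikgi (adjusted p = 0.0238) and 2.64 ± 0.78 with Sayeok (adjusted p = 0.0281). RN7SL3, another such RNA with group means of at most 0.181 CPM, was higher by 2.54 ± 0.84 with Sayeok (adjusted p = 0.0398).

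The calls of the signal recognition particle RNAs were lost when certain single libraries were left out. For RN7SL2 with Bojungikgi, the adjusted p was 0.0592, 0.07 and 0.0654 without vehicle replicate 1, 2 and 3, 0.128 without Bojungikgi replicate 1 at 500 µg/mL and 0.0583 with only the compared groups in the fit. For RN7SL2 with Sayeok it was 0.071, 0.0849 and 0.0685 without the same vehicle replicates, 0.134 and 0.0575 without Sayeok replicate 1 and 2 at 500 µg/mL, and 0.15 with only the compared groups. For RN7SL3 with Sayeok it was 0.116 and 0.101 without vehicle replicate 2 and 3, and 0.138 and 0.131 without Sayeok replicate 1 and 2 at 500 µg/mL. Whether these small RNAs bear on the BCYRN1 values was not tested.

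Counted over the RNAs described here, an adjusted p under 0.05 (edgeR) was reached between 500 and 20 µg/mL by 3 of 5 with Banhasasim, where 7.82% of all tested genes were called. With Bojungikgi it was 2 of 5, beside 1.76% of all genes, and with Sayeok 2 of 5, beside 3.18%. Against the vehicle it was 4 of 5 with Banhasasim (15.3% of all genes), 4 of 5 with Bojungikgi (29.7%) and 3 of 5 with Sayeok (16.6%). The 3 with Sayeok include BCYRN1, whose call was lost without vehicle replicate 1. For the gap in dose response the counts were 1 of 5 for Banhasasim minus Bojungikgi (2.06% of all genes), 2 of 5 for Banhasasim minus Sayeok (1.04%) and 1 of 5 for Sayeok minus Bojungikgi (0.0266%). Groups at 500 and 20 µg/mL without overlap in CPM were found for 59.6% of all genes with Banhasasim, which has 2 libraries a group, 18.3% with Bojungikgi and 21.5% with Sayeok. Since the RNAs were selected for their response, nothing is read from these counts.

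The genes around them were not part of the selection. Of 61 annotated genes within 100 kb of the 5 RNAs, 60 had a row and 16 had enough counts to be tested. Between 500 and 20 µg/mL, 1 was higher and 2 were lower with Banhasasim, 0 and 1 with Bojungikgi, and 1 and 0 with Sayeok. Over all tested genes, 7.82%, 1.76% and 3.18% were called in the same order of extracts. With so few neighbours, nothing is read from these counts.

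FOXA2, whose nearest edge lies 2363 bases from LINC00261 on the same strand, fell with all 3 extracts against the vehicle. Its level was 12.9, 10.7 and 10.7 CPM in the vehicle. At 500 µg/mL it was 7.57 and 7.93 CPM with Banhasasim, 7.95, 8.81 and 8.41 with Bojungikgi and 7.67, 8.22 and 9.43 with Sayeok. All of these lay below the vehicle libraries. The log2 difference from the vehicle was -0.48 ± 0.10 with Banhasasim (edgeR, adjusted p = 0.00136), -0.49 ± 0.09 with Bojungikgi (adjusted p = 0.000349) and -0.47 ± 0.09 with Sayeok (adjusted p = 0.000821). With only the compared groups in the fit, the first and second of these calls were lost (adjusted p = 0.0746 and 0.0583).

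Against 20 µg/mL of the same extract, FOXA2 differed by -0.21 ± 0.11 with Banhasasim (edgeR, adjusted p = 0.288), -0.32 ± 0.09 with Bojungikgi (adjusted p = 0.0619) and -0.30 ± 0.09 with Sayeok (adjusted p = 0.0664), and none passed the threshold. DESeq2 called the Bojungikgi and Sayeok differences (adjusted p = 0.0339 and 0.0498), as did edgeR without a filter on low counts (0.0112 and 0.0304), and the Sayeok difference also passed with only the compared groups in the fit (0.0379). Without Sayeok replicate 3 at 500 µg/mL, the Sayeok difference was -0.39 (adjusted p = 0.0252). Levels at 20 µg/mL were 10.1 and 9.63 CPM with Banhasasim, 10.8, 10.6 and 10.2 with Bojungikgi and 10.8, 10.4 and 10.5 with Sayeok, so that 500 µg/mL lay below 20 µg/mL without overlap in each extract. Within an extract, the log2 difference of FOXA2 was closer to 0 than that of LINC00261 in all 3. That contrast between the genes was not tested.

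CYP4F11, a cytochrome P450 of fatty acid omega-hydroxylation 76041 bases from UCA1 on the opposite strand, rose with Sayeok. It had 0.815, 0.556 and 0.794 CPM at 20 µg/mL of Sayeok and 1.48, 1.56 and 1.19 at 500, a log2 difference of 1.02 ± 0.17 (edgeR, adjusted p = 0.000627). With Banhasasim it had 0.993 and 0.767 CPM at 20 µg/mL and 1.31 and 1.45 at 500, a difference of 0.80 ± 0.20 (adjusted p = 0.0131). The groups did not overlap in either extract. With Bojungikgi the difference was 0.46 ± 0.17 (adjusted p = 0.218). The Banhasasim call was lost without replicate 2 at 500 µg/mL (adjusted p = 0.0681), without replicate 3 at 500 (0.0613) and without replicate 3 at 20 (0.226), and also with only the compared groups in the fit (0.0675). CYP4F11 thus rose with an extract in which UCA1 was lower at 500 µg/mL and with one in which it was higher.

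ENSG00000268460, an unnamed transcript that starts 343 bases from IGFL2-AS1 on the opposite strand, fell with Bojungikgi. It had 0.559, 0.688 and 0.761 CPM at 20 µg/mL and 0.314, 0.366 and 0.423 at 500, with no overlap, and differed by -0.86 ± 0.21 (edgeR, adjusted p = 0.0311). With Banhasasim it differed by -0.69 ± 0.26 (adjusted p = 0.146) and with Sayeok by -0.39 ± 0.21 (adjusted p = 0.425). The Bojungikgi call was lost without replicate 1 (adjusted p = 0.135) or 2 (0.0906) at 500 µg/mL and without replicate 2 (0.12) or 3 (0.161) at 20 µg/mL. It was also lost with no filter on low counts (adjusted p = 0.0615) and with only the compared groups in the fit (0.195). At 500 µg/mL against the vehicle, ENSG00000268460 differed by -0.88 ± 0.24 with Banhasasim (edgeR, adjusted p = 0.0129). With Bojungikgi it differed by -1.03 ± 0.21 (0.00101) and with Sayeok by -0.54 ± 0.20 (0.0691). With only the compared groups in the fit, the Banhasasim and Bojungikgi calls were lost (0.116 and 0.0594). DESeq2 did not call the Banhasasim difference (0.0545). Without vehicle replicate 3 the Sayeok difference passed (0.0388). The annotated span of this transcript does not overlap with that of IGFL2-AS1, and no annotated exon is shared.

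With Banhasasim, 2 further neighbours fell between 20 and 500 µg/mL. PCAT14, a prostate cancer-associated transcript 90690 bases from GUSBP11, differed by -0.47 ± 0.11 (edgeR, adjusted p = 0.00692). EPCAM-DT, which spans BCYRN1 on the opposite strand without sharing an exon, differed by -1.49 ± 0.42 (adjusted p = 0.0267) with 0.460 and 0.523 CPM at 20 µg/mL and 0.152 and 0.166 at 500. The PCAT14 call was lost without replicate 2 at 500 µg/mL (adjusted p = 0.146) or at 20 µg/mL (0.171), and with only the compared groups in the fit (0.0618). For EPCAM-DT the call was lost without replicate 2 (adjusted p = 0.184) or 3 (0.0886) at 500 µg/mL and without replicate 2 (0.072) or 3 (0.171) at 20 µg/mL. Of both genes, neither was called with Bojungikgi or Sayeok. PCAT14 differed there by 0.05 ± 0.09 and 0.06 ± 0.09, and EPCAM-DT by -0.45 ± 0.32 and -0.86 ± 0.33.

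**Figure D4:**
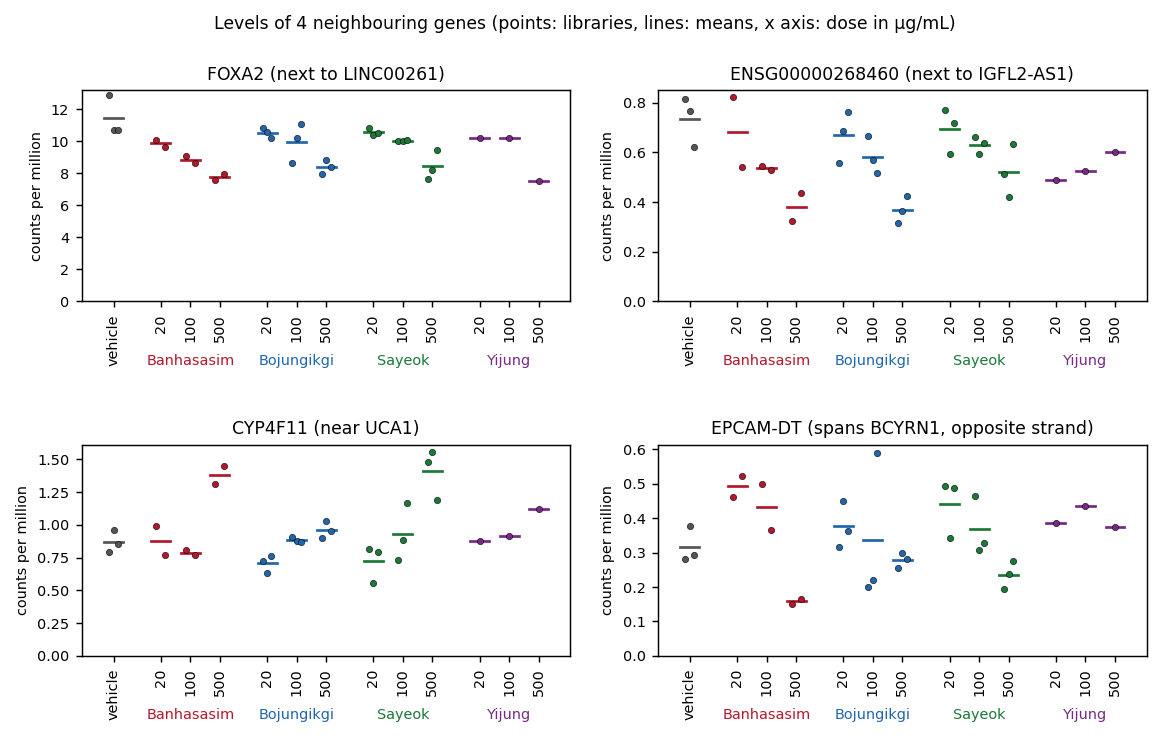
Levels of 4 neighbouring genes (y axes, CPM) per library (points) with group means (lines), by extract and dose in µg/mL. FOXA2 has its lowest values at 500 µg/mL, and CYP4F11 is highest at 500 µg/mL of Banhasasim and Sayeok.

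A list of other well-studied long non-coding RNAs was read beside these 5. It was chosen with earlier results of these data known, so it is no neutral sample of such transcripts. The genes named from it are those with the smallest p here. Of 85 names, 77 had a row and 64 were tested. Between 500 and 20 µg/mL, 6 were higher and 5 lower with Banhasasim, where 7.82% of all genes were called, 2 and 0 with Bojungikgi (1.76% of all genes), and 2 and 1 with Sayeok (3.18%). The median log2 difference of the list was 0.12 with Banhasasim, -0.0 with Bojungikgi and 0.06 with Sayeok, against 0.005, 0.001 and 0.004 over all genes.

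With Banhasasim, LINC01133 rose by 2.25 ± 0.26 on the log2 scale (edgeR, adjusted p = 1e-06), LINC00511 by 0.48 ± 0.07 (adjusted p = 1.32e-05), LINC00662 by 0.50 ± 0.09 (adjusted p = 0.000412) and CYP1B1-AS1, next to the dioxin-inducible CYP1B1, by 0.85 ± 0.14 (adjusted p = 0.000109). With Bojungikgi, LUCAT1, a stress-induced transcript, rose by 1.08 ± 0.20 (adjusted p = 0.00276) and CYP1B1-AS1 by 0.57 ± 0.12 (adjusted p = 0.00795). The latter call was lost without Bojungikgi replicate 1 at 500 µg/mL (adjusted p = 0.0792) and without replicate 2 (0.0594) or 3 (0.0927) at 20 µg/mL, and with only the compared groups in the fit (0.152).

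HOTTIP, a transcript of the HOXA cluster, fell by 0.38 on the log2 scale with Banhasasim (SE 0.07; edgeR, adjusted p = 0.000717) and by 0.29 with Sayeok (SE 0.06; adjusted p = 0.00307). With Bojungikgi it differed by -0.19 ± 0.06 (adjusted p = 0.0917), which DESeq2 (0.0414) and a fit with a replicate block (0.0403) called. With Sayeok, MIR210HG, host of a hypoxia-induced microRNA, rose by 1.03 ± 0.22 (adjusted p = 0.00725), and MIR22HG by 0.33 ± 0.09 (adjusted p = 0.0453). The MIR210HG call was lost without replicate 1 at 500 µg/mL (adjusted p = 0.0506) or replicate 2 at 20 µg/mL (0.0658). That of MIR22HG was lost without any 1 of the 6 libraries, with adjusted p-values of 0.151, 0.0872 and 0.128 for replicates 1, 2 and 3 at 500 µg/mL and 0.14, 0.08 and 0.153 at 20 µg/mL, and also with a replicate block (0.0526).

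Genes of like pattern were sought over the 13 group means of log2 CPM among 10713 genes. These correlations describe groups that share library series, and a few groups at 500 µg/mL carry much of the range. LINC00261 was most like CD200, a membrane glycoprotein that restrains myeloid cells (Pearson r = 0.989), TMX4, a thioredoxin-related membrane protein (0.984), and GNAI1, an inhibitory G protein subunit (0.981). It ran most opposite to ALDH3A1, an aldehyde dehydrogenase (-0.987), and AKR1C3, an aldo-keto reductase (-0.977). Over the 30 libraries, the r with ALDH3A1 was -0.982 and that with CD200 was 0.960. From 20 to 500 µg/mL of Banhasasim, ALDH3A1 went from 21.1 to 57.5 CPM as LINC00261 went from 18.2 to 8.05, and CD200 from 9.81 to 4.67 CPM.

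**Figure D5:**
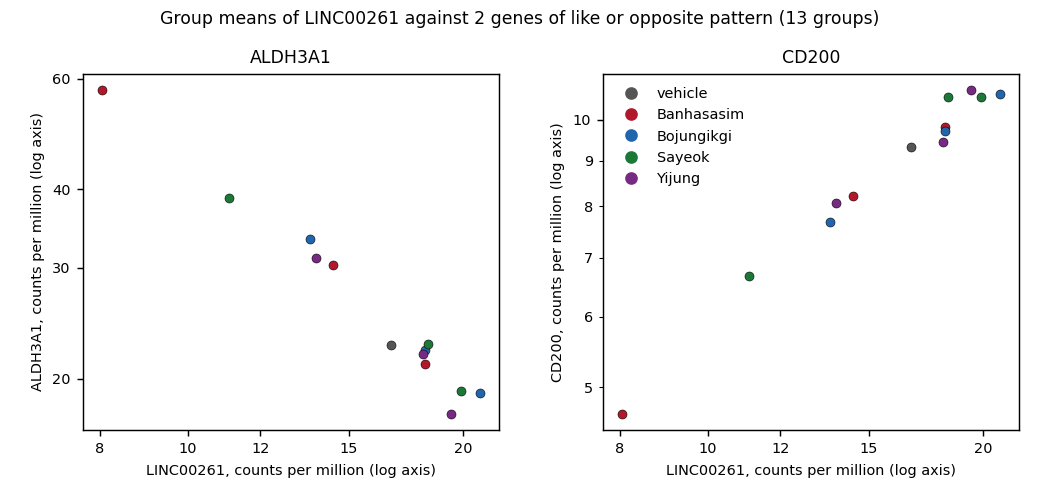
Group means of ALDH3A1 (left) and CD200 (right) against those of LINC00261, all in CPM on log axes, for the vehicle and the 12 extract groups (colours). The ALDH3A1 points fall along a descending line from 57.5 CPM at Banhasasim 500, and the CD200 points rise from 4.67 CPM in the same group.

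The other RNAs had looser partners. IGFL2-AS1 was most like RGCC, a cell cycle regulator (0.865), RWDD2A (0.852) and C18orf32 (0.839), and most opposite to MFSD13A (-0.756) and RASA3 (-0.743). UCA1 was most like CNEP1R1 (0.876), ARFIP2 (0.862) and COX20 (0.853), and most opposite to ARRDC3, an arrestin-domain protein (-0.857), and MCAM, an adhesion molecule (-0.768). GUSBP11 was most like GPR160 (0.965), ABRAXAS1 (0.937) and SCRN3 (0.920), and most opposite to PKP3, a desmosomal plakophilin (-0.931), and NSRP1 (-0.930). BCYRN1 was most like RRP1 (0.835), RUVBL1 (0.833) and MTFR2 (0.826), and most opposite to SEC61A2 (-0.851) and PJA1 (-0.819). Over single libraries the highest r fell to 0.752 for IGFL2-AS1 and RGCC, 0.639 for UCA1 and CNEP1R1, 0.723 for GUSBP11 and GPR160, and 0.728 for BCYRN1 and RRP1.

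A short list of genes induced by xenobiotic and amino acid stress was read beside these RNAs. It was chosen with earlier results of these data known, so its calls and p-values are descriptions and no independent test. All 12 of its genes were higher at 500 than at 20 µg/mL with Banhasasim (edgeR, adjusted p under the threshold), 6 with Bojungikgi and 9 with Sayeok, and none was lower. Over all tested genes, 7.82%, 1.76% and 3.18% were called in the same order of extracts. The median log2 difference of the list was 1.54, 0.36 and 0.48, against 0.005, 0.001 and 0.004 over all genes. CYP1A1, the classical target of the aryl hydrocarbon receptor, rose by 6.11 ± 0.17 with Banhasasim (adjusted p = 1.16e-18), 2.75 ± 0.20 with Bojungikgi (adjusted p = 3.07e-09) and 1.56 ± 0.24 with Sayeok (adjusted p = 0.000262). ALDH3A1 rose by 1.58 ± 0.09, 0.83 ± 0.07 and 1.05 ± 0.07 (adjusted p = 8.73e-13, 4.98e-08 and 4.76e-10). ALDH3A1 was also picked as the gene most opposite to LINC00261, so that the one is no independent sign of the other.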

How the data were processed

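Gene expression was measured by RNA sequencing (directional MGI kit, paired 100 bp reads, per the labels' protocols). The table deposited by the authors holds RSEM's expected counts (version 1.3.3, after alignment by STAR 2.7.3a to GRCh38 and trimming with Trim Galore 0.6.5), per the submitters' processing notes. Neither its annotation release nor its strand option is known here. It has 270 value columns, of which 30 match samples of the study and 240 went unused. Counts were rounded (25.48% of values above 0 were not whole). The vehicle is labelled 0.1% DMSO and written as 2% in the series text, which also says that extracts with a 20% inhibitory concentration below 500 µg/mL were dosed lower, whereas the labels here give 20, 100 and 500 µg/mL for all.

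Levels are plain CPM. Differences come from edgeR 4.0.16 in R 4.3.3 (filterByExpr with a minimum count of 10, TMM, robust quasi-likelihood fit of 13 group means over 30 libraries, 17 residual degrees of freedom), with Benjamini-Hochberg adjustment over 18783 genes and a threshold of 0.05. The SE is the absolute log2 difference divided by the root of F. Likeness used log2(CPM + 0.05). Alternatives were DESeq2 1.42.0, RLE factors, no low-count filter, only the compared groups, a replicate block, no mitochondrial genes and leaving out each library. The members and lists were chosen with earlier results of these data known. Of other genes, those named are neighbours within 100 kb that were called or overlap, up to 4 genes per list with the smallest p and at least 1 CPM in 1 group, and the 3 most like and 2 most opposite genes with a proper symbol and at least 5 CPM in 1 group. Coordinates are from GENCODE 29, which held 94.03% of the identifiers. The limits of 3 counts cover counting error only, whereas the SE and the interval include the spread between libraries. The sequence of BCYRN1 is not reported here.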

Additional observations from a re-analysis of the deposited data

Results flagged for a closer look

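UCA1 moved in opposite directions between extracts. Every library at 500 µg/mL was below every library at 20 µg/mL with Banhasasim and with Bojungikgi, and above with Sayeok. Such groups without overlap, in either direction, were found for 59.6%, 18.3% and 21.5% of all tested genes in the same order. Banhasasim has 2 libraries a group. On the log2 scale the gap between the UCA1 changes was -0.81 for Banhasasim minus Sayeok and 0.57 for Sayeok minus Bojungikgi. Because UCA1 was selected for its response, these gaps are a description and were not tested on independent data. In the fit over all genes the first passed the adjusted threshold and the second did not. Because of the selection, nothing is read from either outcome.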

How the results depend on the processing

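Among the 5 RNAs, no difference that passed the threshold changed sign under any alternative. Beyond the replicate spread, only BCYRN1 moved, when 1 library was left out: its log2 difference ranged from -0.95 to -0.29 for Banhasasim against the vehicle, -0.49 to 0.08 for Bojungikgi, -0.88 to -0.31 for Sayeok, and 0.02 to 0.57 for Banhasasim between 500 and 20 µg/mL. RLE factors and leaving out mitochondrial genes kept every count of calls within 1.5 times. Without the low-count filter, 606 genes were called for Bojungikgi between 500 and 20 µg/mL (331 with it), and the gap in dose response was called for 963, 327 and 182 genes (386, 196 and 5 with it) for Banhasasim minus Bojungikgi, Banhasasim minus Sayeok and Sayeok minus Bojungikgi. The lists then held, with Banhasasim, 2 GUSB copies, 19 long non-coding RNAs, 1 marker of other cell types and 5 neighbours. With Bojungikgi they held 3 small RNAs and 4 long non-coding RNAs, and with Sayeok 2 small RNAs and 3 neighbours. With only the compared groups in the fit, 54 genes were called for Bojungikgi between 500 and 20 µg/mL, and 648, 189 and 1264 against the vehicle for Banhasasim, Bojungikgi and Sayeok (2870, 5580 and 3117 with all groups). The gap counts were then 154 for Banhasasim minus Bojungikgi and 3 for Sayeok minus Bojungikgi, and lists held 1 long non-coding RNA and 0 neighbours with Bojungikgi and 5 and 3 with Sayeok. DESeq2 called 2 neighbours with Sayeok and 11 genes for Sayeok minus Bojungikgi. The causes were not tested. Leaving out 1 library gave 636 to 1519, 164 to 354 and 386 to 445 genes between 500 and 20 µg/mL for Banhasasim, Bojungikgi and Sayeok, and 1470 to 3077, 2822 to 6054 and 1437 to 3793 against the vehicle. The gaps were called for 169 to 535, 116 to 197 and 4 to 8 genes. Called long non-coding RNAs of the list ranged from 7 to 16, 1 to 2 and 1 to 4, and neighbours from 0 to 1, 0 to 1 and 1 to 2. Same-numbered libraries did not deviate together throughout (correlations -0.272 to 0.197 between doses and -0.487 to 0.603 between 500 µg/mL and the vehicle), so the numbers were not taken to pair them. With a replicate block, 1553, 395 and 623 genes were called between 500 and 20 µg/mL, and LINC00261 differed by -1.04, -0.62 and -0.81. Likeness over the 30 libraries, in place of group means, differed by 0.1 or more for 8 of the 10 closest genes in either direction. A limit of 3 counts lies at 0.0419 to 0.0827 CPM, and the lowest level of EPCAM-DT was 0.152 CPM.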
